A study of Mus musculus with 30 samples.

Results

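Transcripts of haemoglobin and of the proteins that clear free haemoglobin and heme were followed in bulk mammary tumours. The 8 genes were taken by symbol from a table of 21841 genes: the alpha chains Hba-a1 and Hba-a2, the beta chains Hbb-bs and Hbb-bt, Alas2, haptoglobin (Hp), hemopexin (Hpx) and the hemopexin receptor Lrp1. Of these, 7 were among the 13663 genes that passed a filter on low counts, and Hpx did not. The tumours came from mice bred as FVB/N-Tg(MMTV-PyVT)634Mul/J, in which the mouse mammary tumour virus promoter drives the polyoma middle T oncogene in mammary epithelium and tumours arise spontaneously. All 30 libraries carry the genotype label WT and name no other allele. There were 6 groups of 5 libraries: vehicle, 5-fluorouracil (5-FU) at 40 mg/kg per 4 days, gemcitabine at 64 mg/kg per 7 days, KCL-HO-1i at 25 µmol/kg daily, and this inhibitor with either drug (KCL-HO-1i/5-FU, and likewise KCL-HO-1i/gemcitabine). Drugs were given by intraperitoneal injection over 72 hours per the labels. The paper states a shorter time in its results and a far lower gemcitabine dose in its methods. KCL-HO-1i inhibits heme oxygenase 1 (HO-1), and 5-FU and gemcitabine are cytotoxic antimetabolites. Mouse age was not given in the sources used here.

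Haemoglobin is a tetramer of alpha and beta chains that each hold a heme. Its messages fill reticulocytes, the youngest red cells in blood, and Alas2 is the erythroid enzyme for the first step of heme synthesis. Haemoglobin released from red cells is bound by haptoglobin, a secreted protein made mainly by liver and also by adipose tissue and neutrophils, and the complex is taken up by the macrophage receptor CD163. Free heme is bound by hemopexin, which LRP1, a large receptor of the LDL receptor family with many ligands, carries into the cell, where HO-1 (Hmox1) breaks heme down.

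The paralogs of each chain are almost identical, which limits what their separate counts can mean. The coding sequences of Hba-a1 and Hba-a2, read from GENCODE M21 transcripts, differ at 1 of 426 bases, and those of Hbb-bs and Hbb-bt at 1 of 441. The 41 coding bases around each difference are shown, from base 361 to base 401 for the alpha chains and from base 397 to base 437 for the beta chains, counted from the first base of the start codon, with the base that differs in capitals.
Hba-a1: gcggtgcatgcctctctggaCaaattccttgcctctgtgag
Hba-a2: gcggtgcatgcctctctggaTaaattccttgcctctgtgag
Hbb-bs: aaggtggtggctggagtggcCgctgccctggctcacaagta
Hbb-bt: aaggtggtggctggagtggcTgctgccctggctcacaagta
A coding read that misses this base cannot be assigned to 1 paralog, so the split between paralogs is an estimate. The sum of each pair is therefore given beside the single genes. In the annotation Hba-a1 spans chr11:32283672-32284486, Hba-a2 chr11:32296492-32297310, Hbb-bs chr7:103826523-103827928, Hbb-bt chr7:103812524-103813923, Alas2 chrX:150547417-150570622, Hp chr8:109575128-109579172, Hpx chr7:105591611-105600116 and Lrp1 chr10:127538157-127621148 (GRCm38.p6, all protein coding).

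The stretch before the gene start is shown for 3 genes whose counts were low in many of the same libraries. Each run is the 250 bases before the start in the RefSeq promoter table on GRCm38.p6, the assembly that mm10 names, 5′ to 3′ on the strand of the gene. Capitals mark matches on either strand to the word AGATAA, the word AGATAG, the word TGATAA or the word TGATAG, the kind that erythroid GATA factors bind. The Alas2 match lies on the other strand and so prints as its reverse complement. The windows are chr11:32283422-32283671 on the + strand for Hba-a1, chr7:103827929-103828178 on the - strand for Hbb-bs and chrX:150547167-150547416 on the + strand for Alas2.
Hba-a1: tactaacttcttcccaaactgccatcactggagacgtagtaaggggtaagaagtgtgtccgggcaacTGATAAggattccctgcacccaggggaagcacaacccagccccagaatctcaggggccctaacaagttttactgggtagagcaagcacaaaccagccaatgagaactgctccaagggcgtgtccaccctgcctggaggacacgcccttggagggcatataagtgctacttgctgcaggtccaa
Hbb-bs: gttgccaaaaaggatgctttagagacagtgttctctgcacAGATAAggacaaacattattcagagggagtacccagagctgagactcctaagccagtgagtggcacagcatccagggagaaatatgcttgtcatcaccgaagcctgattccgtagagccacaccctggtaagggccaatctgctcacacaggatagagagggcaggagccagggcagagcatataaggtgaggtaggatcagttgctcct
Alas2: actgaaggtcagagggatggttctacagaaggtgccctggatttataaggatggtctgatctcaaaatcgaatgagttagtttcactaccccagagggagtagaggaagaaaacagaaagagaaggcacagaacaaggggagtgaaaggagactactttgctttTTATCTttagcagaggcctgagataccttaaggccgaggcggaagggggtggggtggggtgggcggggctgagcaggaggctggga
Each of these windows held 1 such word, as did those of Hba-a2 and Hpx, while those of Hbb-bt and Lrp1 held 0. The words occurred in 26.5% of 32536 distinct windows of this length, so a match describes letters and does not mark a bound site. Promoters of 7 of the 8 genes were in the table, and Hp was not.

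Library totals ran from 10067698 to 13622395 counts, and the common biological coefficient of variation was 0.401. Levels are in CPM, counts scaled to the effective size of each library. Gemcitabine replicate 5 stood apart from the other 4 libraries of its group, and the results it decides are given with and without it. Its marker sums were high for adipocytes (2676 CPM, the 4th highest of 30), fibroblasts (3279 CPM, the 4th highest), endothelium (190.3 CPM, the 4th highest) and macrophages (637 CPM, the 5th highest). The sum was low for skeletal muscle (1.59 CPM). The neutrophil list summed to 2528 CPM, the 3rd highest, but this sum mostly follows Ltf. In the gemcitabine group Ltf held 64668 reads and S100a8, the next gene of that list, 1960. The labels give each library a mouse code whose meaning is not stated. Gemcitabine replicates 1 to 4 share code 76 with 5-FU replicates 1 to 3, and replicate 5 is alone in code 86. Epithelial markers, which define the labelled tissue, summed to 2361 to 5571 CPM over all libraries (8 genes). In bulk tissue, fewer cells of a type and less RNA per cell cannot be told apart.

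Haemoglobin transcripts were low in most tumours given gemcitabine, alone or with KCL-HO-1i. Hba-a1 was at 165, 161, 225, 253 and 47.8 CPM in vehicle replicates 1 to 5. In gemcitabine it was at 3.18, 9.52, 4.12, 1.09 and 373 CPM, and in KCL-HO-1i/gemcitabine at 10.3, 58.0, 23.5, 2.49 and 46.4 CPM. So 4 gemcitabine libraries lay far below every vehicle library while replicate 5 was the highest of all 30, and the combination overlapped vehicle only through its replicate 2 and the low vehicle replicate 5.

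The other groups held more Hba-a1 in most libraries. It was at 59.2, 147, 104, 165 and 54.7 CPM in 5-FU and at 114, 176, 345, 352 and 107 CPM in KCL-HO-1i. The KCL-HO-1i/5-FU libraries held 48.1, 25.5, 278, 77.4 and 22.7 CPM. Both 5-FU and KCL-HO-1i lay above the lowest vehicle library throughout, and 2 libraries of KCL-HO-1i/5-FU lay below it.

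Hba-a2, the other alpha row, held 0 to 550 reads per library with a median of 0. Its highest levels were 49.0 CPM in gemcitabine replicate 5 and 48.4 CPM in KCL-HO-1i/5-FU replicate 3. Libraries rich in Hba-a1 could hold 0 Hba-a2 reads, as vehicle replicate 2 did with 2220 reads of Hba-a1, so this row says little by itself.

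Beta chains were low in the same libraries. Hbb-bs was at 95.1, 121, 182, 164 and 30.3 CPM in vehicle, at 1.22, 3.26, 2.56, 0.931 and 262 CPM in gemcitabine, and at 2.74, 25.4, 12.9, 0.904 and 23.6 CPM in KCL-HO-1i/gemcitabine. All 5 combination libraries and 4 of 5 gemcitabine libraries lay below the lowest vehicle library. Hbb-bs was at 43.1, 88.5, 48.9, 129 and 39.9 CPM in 5-FU and at 73.1, 119, 247, 259.9 and 90.2 CPM in KCL-HO-1i. Its levels with both KCL-HO-1i and 5-FU were 29.2, 19.1, 260.1, 50.4 and 18.5 CPM. Of these, 3 libraries were below every vehicle library and replicate 3 was above every one.

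Hbb-bt, the minor beta row, came close to 0 in the gemcitabine groups. Vehicle libraries held 111, 136, 176, 180 and 41 reads of it (10.4, 9.88, 15.5, 15.3 and 3.05 CPM). Gemcitabine libraries held 0, 2, 0, 0 and 131 reads and KCL-HO-1i/gemcitabine libraries 0, 6, 4, 0 and 4. A count of 0 allows up to 3 reads, worth 0.215 to 0.302 CPM across the libraries, counting error only. Pooled over gemcitabine replicates 1 to 4, 2 reads against 644 in vehicle came to a 254-fold lower rate (95% exact interval 69.9 to 2098, counting error only). With replicate 5, left out here after its level was seen, the group held 133 reads, and its mean CPM was 0.244 times that of vehicle.

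**Figure D1:**
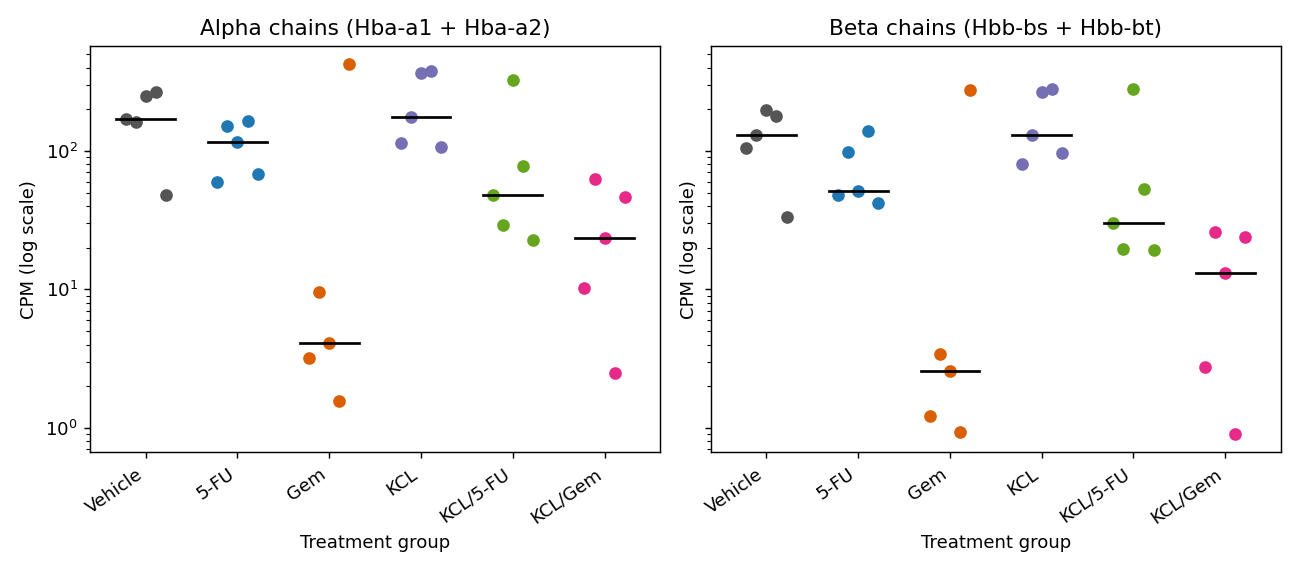
Summed alpha chain and summed beta chain levels in CPM on a log scale, 1 point per tumour in each of the 6 groups with a line at the group median (Gem is gemcitabine, KCL is KCL-HO-1i). In gemcitabine 4 of 5 tumours lie at 9.52 CPM or lower for alpha and 3.42 CPM or lower for beta, and replicate 5 lies at 422 and 275 CPM.

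Summed over paralogs, the beta chains had the highest group medians in vehicle (131 CPM) and KCL-HO-1i (129.7), then 5-FU (51.5), KCL-HO-1i/5-FU (30.3), the gemcitabine combination (13.2) and gemcitabine alone (2.56, n = 5 each). The alpha sums had medians of 169, 176, 117, 48.1, 23.5 and 4.12 CPM in the same order. Neighbours in this order overlapped in range, including vehicle with KCL-HO-1i, and gemcitabine with its combination. Against vehicle, the beta median was 51.2-fold lower in gemcitabine and 9.93-fold lower in KCL-HO-1i/gemcitabine. Over the 10 libraries with gemcitabine the median beta sum was 3.08 CPM against 97.5 CPM in the other 20, and 9 of the 10 were below the lowest vehicle library. The 4 rows together took a median of 0.0299% of counts in vehicle and 0.000641% in gemcitabine.

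With all 30 libraries, edgeR's quasi-likelihood test called no member in gemcitabine against vehicle, as it called none of the 13663 genes (0%). At an unadjusted p under 0.05, 0 of 7 members passed against 3.83% of all genes, and DESeq2 and limma-voom with quality weights also called 0. The log2 fold change was -1.13 for Hba-a1 (SE 1.04, adjusted p = 0.941), -1.14 for Hbb-bs (SE 1.09, adjusted p = 0.941) and -2.05 for Hbb-bt (SE 1.18, adjusted p = 0.941). Each standard error was of the order of the difference.

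Without gemcitabine replicate 5, edgeR called 3 of 13839 genes in this comparison (0.0217%), and the 3 were Hba-a1, Hbb-bs and Hbb-bt. Their log2 fold changes were -5.25 (SE 0.92), -5.89 (SE 1.01) and -7.70 (SE 1.39), each with an adjusted p of 0.0384. Merging each pair of paralogs gave -5.28 for alpha and -5.98 for beta without that library (adjusted p = 0.0447 for both) and -1.02 and -1.20 with it. Leaving out each library in turn was planned, and this one was singled out after its level in these same rows had been seen. These calls are therefore no independent test of the rows. All gemcitabine libraries that remain carry mouse code 76, which no vehicle library carries. Drug and code therefore cannot be told apart in this comparison, and libraries that share a code may not be independent.

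In KCL-HO-1i/gemcitabine Hbb-bs and Hbb-bt lay below vehicle in all 5 libraries, with no call by edgeR. The log2 fold change against vehicle was -2.60 for Hba-a1 (SE 1.09, adjusted p = 0.175), -3.19 for Hbb-bs (SE 1.18, adjusted p = 0.132) and -5.41 for Hbb-bt (SE 1.45, adjusted p = 0.0828). No gene of 13663 was called (0%). At an unadjusted p under 0.05, 6 of 7 members passed against 19.8% of all genes, 4 lower (Hba-a1, Hbb-bs, Hbb-bt and Alas2) and 2 higher (Hp and Lrp1). DESeq2 called 4 members against 6.49% of genes (Hbb-bs, Hbb-bt, Alas2 and Hp), and limma-voom called 5 against 9.59% (Hba-a1, Hbb-bs, Hbb-bt, Hp and Lrp1). Ranges did not overlap vehicle for Hbb-bs, Hbb-bt and Alas2, all lower, where 1.84% of all genes were lower without overlap, and for Lrp1, higher, where 2.2% were. The median log2 fold change of the 7 members was -2.65, beside 0.02 over all genes.

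A contrast added after seeing the data averaged gemcitabine over both backgrounds, with and without KCL-HO-1i. Its log2 fold change by edgeR was -2.05 for Hba-a1 (SE 0.75), -2.37 for Hbb-bs (SE 0.81) and -3.88 for Hbb-bt (SE 0.94), each with an adjusted p of 0.838, and no gene was called (0%). At an unadjusted p under 0.05, 4 of 7 members passed, all lower, against 5.14% of all genes, while DESeq2 and limma-voom called 0. Without gemcitabine replicate 5, edgeR called 3 of 13839 genes (0.0217%), again Hba-a1 (-4.11), Hbb-bs (-4.75) and Hbb-bt (-6.71), with adjusted p of 0.00100, 5.52e-04 and 5.52e-04. That library was singled out after its level in these same rows had been seen, so these calls are no independent test of them.

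Within mouse codes the order was the same. In the 4 codes that held libraries with and without gemcitabine, every gemcitabine library had a lower haemoglobin sum than every other library of its code. Gemcitabine replicate 5, at 697 CPM the highest of 30, is alone in code 86 and could not enter. Only code 76 held gemcitabine without KCL-HO-1i, and it held no vehicle library. In code 76 the sum was 4.41, 12.9, 6.68 and 2.48 CPM in gemcitabine and 107 CPM or more in the 3 libraries of 5-FU. In code 70 it was 88.4 CPM in KCL-HO-1i/gemcitabine replicate 2 and 306, 633 and 609 CPM in 3 libraries without gemcitabine. The pairs in codes 71 and 84 stood at 36.7 against 194 CPM and at 70.4 against 275 CPM.

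Blood vessel transcripts reached at least the vehicle levels in these groups. The endothelial sum (10 genes) ranged from 74.7 to 115 CPM in vehicle, from 78.8 to 190.3 CPM in gemcitabine and from 90.8 to 595 CPM in KCL-HO-1i/gemcitabine. The platelet list had median sums of 85.98, 103 and 91.3 CPM in these groups (8 genes, 3 tested). Most of its reads were of Itgb3, 4342 in vehicle, 4852 in gemcitabine and 4933 in KCL-HO-1i/gemcitabine. Pf4, the next gene, held 91, 171 and 609 reads, so the sum says little about platelets or blood content.

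Alas2 was low in the gemcitabine groups too, at counts of 0 to 111 reads per library. It was at 3.48, 3.34, 6.24, 6.61 and 1.26 CPM in vehicle, at 0, 0.918, 0.275, 2.02 and 4.97 CPM in gemcitabine, and at 0.816, 0.805, 0.248, 0.452 and 0.984 CPM in KCL-HO-1i/gemcitabine. All 5 combination libraries lay below vehicle, while gemcitabine replicates 4 and 5 lay within it. Elsewhere it was at 2.26, 2.76, 1.31, 3.83 and 1.19 CPM in 5-FU, at 2.80, 3.06, 8.29, 8.45 and 3.46 CPM in KCL-HO-1i, and the KCL-HO-1i/5-FU libraries stood at 0.905, 0.816, 4.84, 1.98 and 0.470 CPM. The highest and lowest libraries within each of these groups were mostly those that were high and low in Hbb-bs.

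By edgeR, the Alas2 log2 fold change was -1.36 in gemcitabine against vehicle (SE 0.75, adjusted p = 0.941) and -2.65 in KCL-HO-1i/gemcitabine (SE 0.80, adjusted p = 0.0921). Over both gemcitabine backgrounds it was -2.16 (SE 0.55, unadjusted p = 5.20e-04, adjusted p = 0.838). Leaving out gemcitabine replicate 5 gave -2.35 against vehicle (adjusted p = 0.952), so Alas2 was not called where the haemoglobin chains were. Within mouse codes it was lower in the gemcitabine libraries in 3 of 4 codes, the exception being code 76, where gemcitabine replicate 4 held 26 reads.

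**Figure D2:**
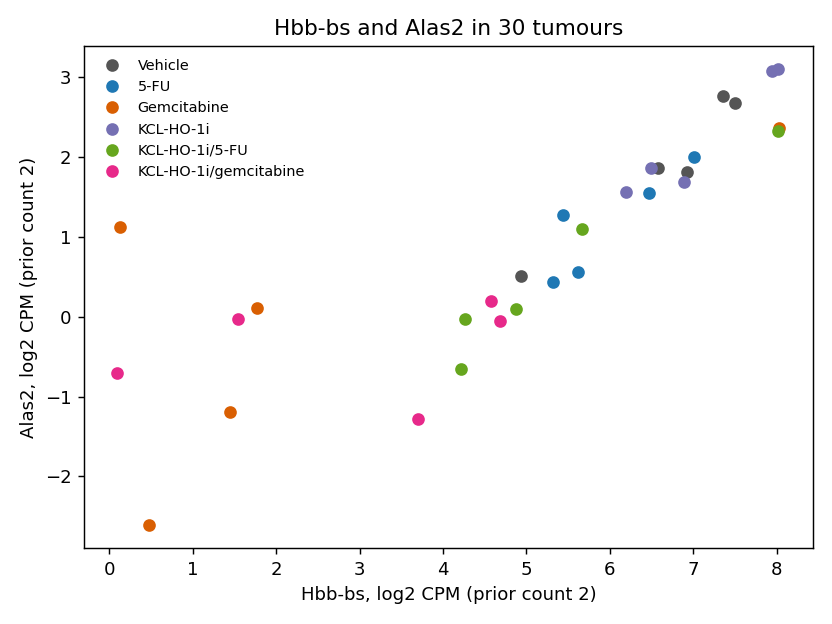
Log2 CPM (prior count 2) of Hbb-bs on the horizontal axis and Alas2 on the vertical axis, 1 point per tumour, coloured by group. The 20 tumours without gemcitabine lie along 1 line (r = 0.962), gemcitabine replicate 5 lies near its upper end, and the other tumours with gemcitabine lie mostly to the left with scattered Alas2.

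Across tumours Hbb-bs and Alas2 moved together where gemcitabine was not given. Over all 30 libraries, as planned, Pearson's r on log2 CPM was 0.819 and Spearman's rho 0.915 (permutation p = 1e-05 for each, adjusted p = 2e-05 and 2.67e-05 over 8 relations). Most libraries with gemcitabine held less Hbb-bs, though the ranges overlapped. The relation was therefore also computed with and without gemcitabine, a split that was not planned. Over the 20 libraries without gemcitabine, r was 0.962 and rho 0.964 (permutation p = 1e-05 for each, the smallest 100000 permutations can give, adjusted p = 8e-05 over 8 tests within these sets of libraries), and r was 0.949 without the 2 libraries farthest from the median. Over the 10 libraries with gemcitabine r was 0.56 (permutation p = 0.0985) and rho 0.358 (permutation p = 0.315), and r was -0.144 without the 2 farthest libraries. Vehicle libraries held 1.14 to 1.56 Alas2 reads per 100 haemoglobin reads, and gemcitabine replicate 4 held 81.2.

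Other genes of the red cell lineage had few reads or were not called. Of 6 further haemoglobin chains in the table, 4 had no read in any library and Hbq1a and Hbq1b had 3 or fewer reads per library. The anion exchanger Slc4a1 had 37 reads over all 30 libraries, the erythroid factor Gata1 had 7 and Klf1 had 151. Of 25 erythroid genes in the table, 11 were tested and 0 were called by edgeR in any comparison. Over both gemcitabine backgrounds their median log2 fold change was -0.01 beside 0.03 for all genes, with 1 gene lower at an unadjusted p under 0.05. In the KCL-HO-1i average 6 were positive and 5 negative. Those with the smallest p by edgeR were Ank1 (2.46, SE 0.62, adjusted p = 0.0525), Tal1 (0.65, adjusted p = 0.145), Fech (0.22, adjusted p = 0.147) and Epor (0.53, adjusted p = 0.298). Of 1433 Ank1 reads, 646 came from 1 library. Many of these 11, such as Fech, Bnip3l and Car2, are expressed outside red cells.

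The split of the beta reads varied between libraries. Hbb-bt took 8.32% of the beta reads pooled over vehicle (95% exact interval 7.72 to 8.96, range over libraries 7.53 to 9.88%). It took 8.07% in 5-FU and 7.78% in KCL-HO-1i. 5-FU replicates 3 and 5 stood below every vehicle library, at 5.10 and 5.28%. In KCL-HO-1i/5-FU the pooled 6.68% was carried by replicate 3 (253 of 3206 reads, 7.89%), and the other 4 libraries stood below vehicle at 3.73, 1.91, 5.26 and 4.45%. In KCL-HO-1i/gemcitabine it took 14 of 736 reads, 1.902% (1.04 to 3.17), with no library above 2.5%. Gemcitabine replicate 5, with 2769 beta reads, stood at 4.73% (3.97 to 5.59), below every vehicle library. The other 4 gemcitabine libraries held too few beta reads, 12 to 41, to place the share.

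**Figure D3:**
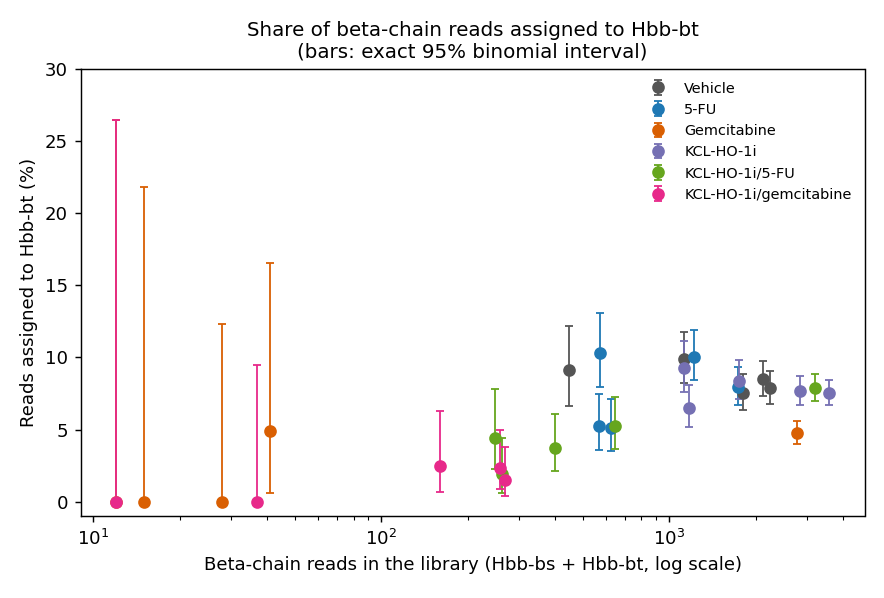
Share of beta chain reads assigned to Hbb-bt against the number of beta reads in each tumour (log axis), by group, with exact 95% intervals. All 10 libraries with gemcitabine and 3 of 5 KCL-HO-1i/5-FU libraries lie at or below 4.88%, and vehicle libraries lie between 7.53 and 9.88%.

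The alpha share of all haemoglobin reads was 57.9% in vehicle (57.2 to 58.6) and 68.4% in KCL-HO-1i/gemcitabine (66.5 to 70.3), where each library stood between 64.0 and 79.0%, above the highest vehicle library at 61.6%. Gemcitabine libraries ranged from 60.5 to 73.5%, and 5-FU libraries from 54.1 to 69.43%. These shares rest on the assignment of near-identical reads, and their intervals cover counting error only.

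Haptoglobin (Hp) was higher in many tumours given KCL-HO-1i. It was at 45.8, 19.5, 21.4, 95.2 and 22.1 CPM in vehicle, at 128, 171, 281, 1122 and 65.5 CPM in KCL-HO-1i, and at 274, 1322, 305, 34.4 and 266 CPM in KCL-HO-1i/gemcitabine. In both groups 4 of 5 libraries were above the highest vehicle library. In KCL-HO-1i/5-FU it was at 50.5, 106, 831, 42.4 and 32.8 CPM, where 2 of 5 were. Without KCL-HO-1i it was at 67.5, 36.8, 75.5, 9.20 and 66.02 CPM in 5-FU and at 35.8, 52.0, 91.5, 17.2 and 689 CPM in gemcitabine, replicate 5 again the highest. Mean ± SD was 40.8 ± 32.3 in vehicle and 354 ± 437 in KCL-HO-1i (n = 5 each). The combination with 5-FU had 213 ± 347 and that with gemcitabine 440.1 ± 504 (n = 5 each), so in all 3 groups with KCL-HO-1i the SD exceeded the mean.

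Lrp1, the hemopexin receptor, was higher by a smaller factor. It was at 40.4, 45.3, 29.2, 50.5 and 19.9 CPM in vehicle, at 50.2, 76.46, 83.9, 139.7 and 22.2 CPM in KCL-HO-1i, and at 67.8, 263, 87.7, 68.4 and 83.7 CPM in KCL-HO-1i/gemcitabine. All 5 libraries of the last group lay above vehicle. In KCL-HO-1i/5-FU it was at 39.3, 65.6, 453, 74.395 and 36.9 CPM, in 5-FU at 78.7, 36.0, 92.0, 26.5 and 40.8 CPM, and in gemcitabine at 56.0, 37.4, 30.9, 26.2 and 78.5 CPM. Replicate 3 of KCL-HO-1i/5-FU was the highest of all 30 libraries, and it also held the most Hmox1, 1198 CPM.

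**Figure D4:**
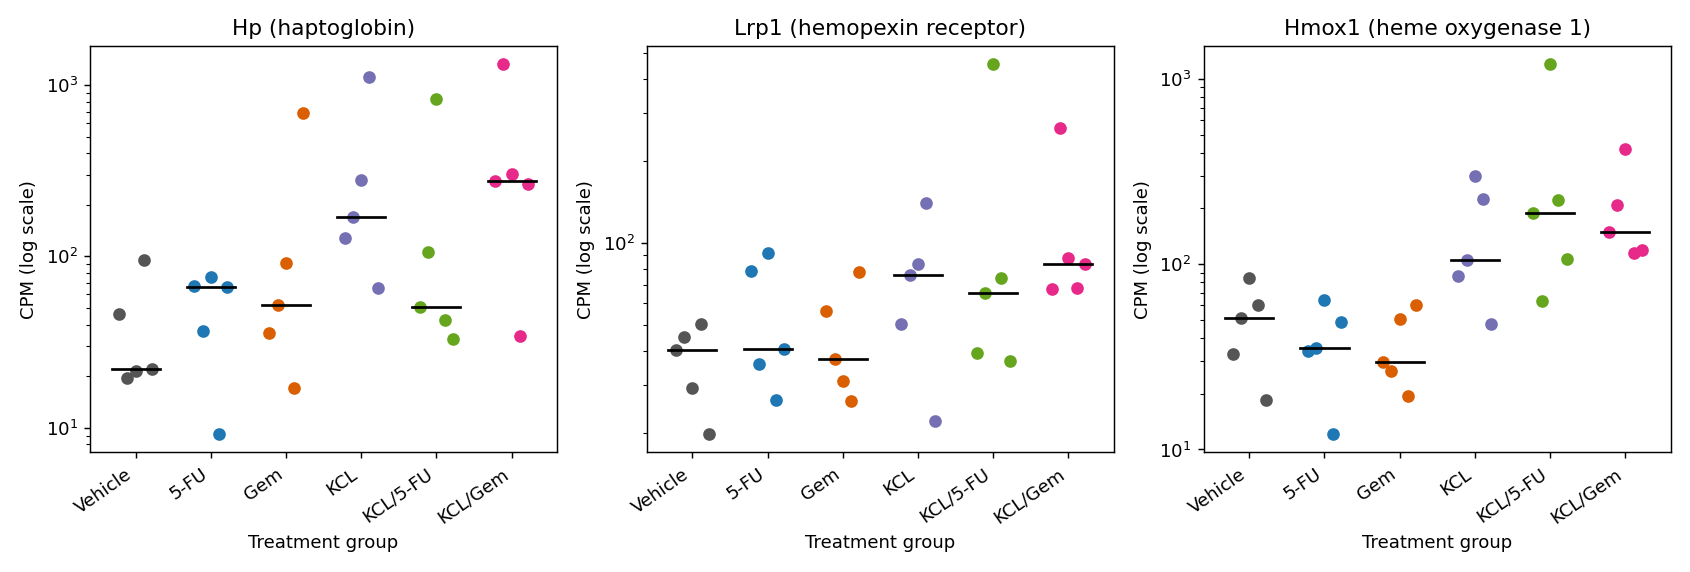
Levels of haptoglobin (Hp), Lrp1 and Hmox1 in CPM on a log scale, 1 point per tumour by group with a line at the group median (Gem is gemcitabine, KCL is KCL-HO-1i). Median Hp is 22.1 CPM in vehicle, 171 in KCL-HO-1i and 274 in KCL-HO-1i/gemcitabine, and every tumour of that combination has more Lrp1 and Hmox1 than every vehicle tumour.

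Averaged over the 3 backgrounds (vehicle, 5-FU and gemcitabine), KCL-HO-1i gave a log2 fold change of 2.16 for Hp (SE 0.61, adjusted p = 0.0560) and 1.20 for Lrp1 (SE 0.34, adjusted p = 0.0570) by edgeR, just outside the threshold of 0.05. Of all genes 8 were called (0.0586%), none of them a member. At an unadjusted p under 0.05, 2 of 7 members passed, both higher, against 23% of all genes. DESeq2 called Hp and Lrp1 among 8.38% of genes, and limma-voom called 0 members. Without gemcitabine replicate 5, edgeR called both, Hp at 2.76 (adjusted p = 0.0170) and Lrp1 at 1.28 (adjusted p = 0.0286), among 8.17% of genes. Hp was above the mean of its background in 13 of 15 KCL-HO-1i libraries and Lrp1 in 12 of 15.

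In single comparisons edgeR called neither, while DESeq2 called Lrp1 in KCL-HO-1i/5-FU and Hp in KCL-HO-1i/gemcitabine, and limma-voom called both in the latter. Against vehicle, KCL-HO-1i gave 3.11 for Hp (SE 1.09, adjusted p = 0.364) and 1.01 for Lrp1 (SE 0.59, adjusted p = 0.653), with 0% of genes called and 1 of 7 members, Hp, at an unadjusted p under 0.05 against 9.43% of genes. KCL-HO-1i/5-FU gave 2.38 for Hp (adjusted p = 0.240) and 1.85 for Lrp1 (adjusted p = 0.136), with 0% called and 2 of 7 members past the unadjusted threshold against 17.6% of genes, and the DESeq2 call of Lrp1 was among 3% of genes. Without KCL-HO-1i/5-FU replicate 3 these values were 0.50 and 0.55. KCL-HO-1i/gemcitabine gave 3.43 for Hp (SE 1.11, adjusted p = 0.100) and 1.62 for Lrp1 (SE 0.60, adjusted p = 0.131).

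Against its own chemotherapy, KCL-HO-1i gave 1.29 for Lrp1 with 5-FU (adjusted p = 0.412), the only one of 7 members past the unadjusted threshold against 11.4% of genes, with 0% called. With gemcitabine it gave 1.32 for Lrp1 (adjusted p = 0.343) and -3.35 for Hbb-bt (adjusted p = 0.323), 2 of 7 members against 13.5% of genes, with 0% called. The Hbb-bt value rests on gemcitabine replicate 5, the only gemcitabine library with more than 2 reads of it.

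**Figure D5:**
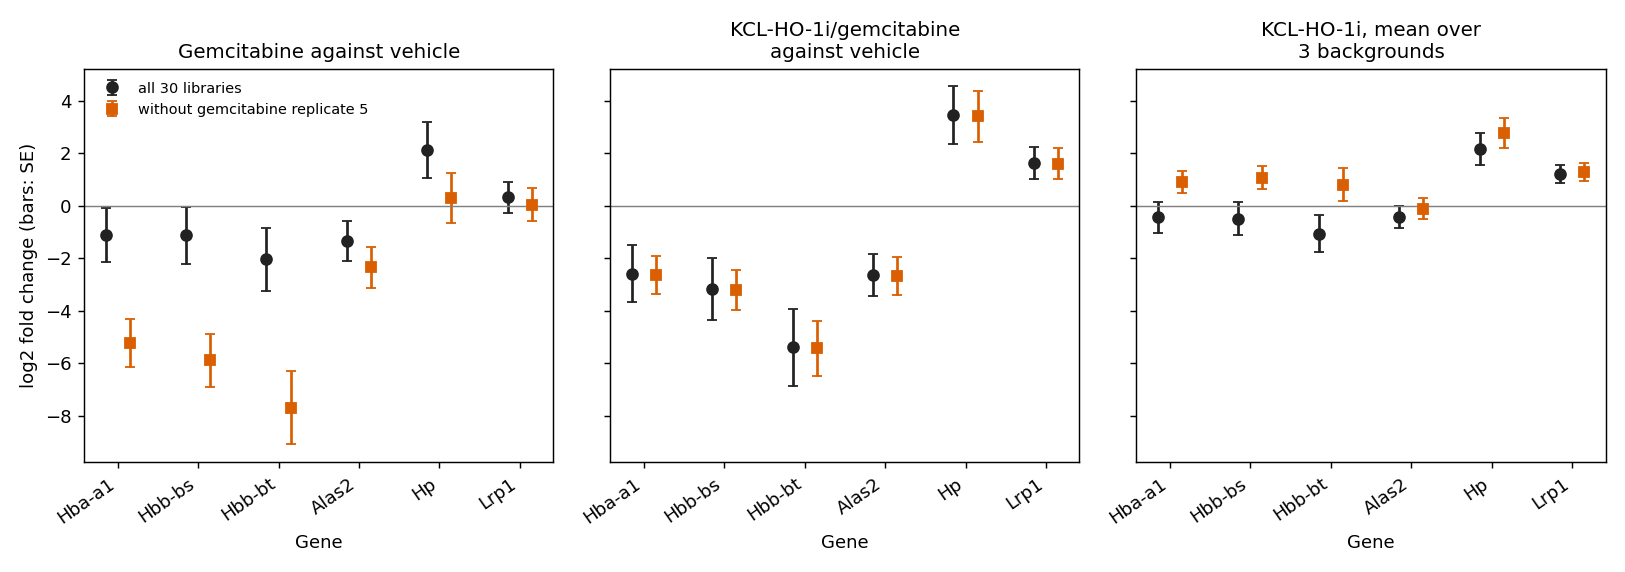
Log2 fold changes from edgeR (vertical axis, bars are 1 SE) of Hba-a1, Hbb-bs, Hbb-bt, Alas2, Hp and Lrp1 in 3 comparisons, with all 30 libraries (circles) and without gemcitabine replicate 5 (squares). Without it Hbb-bs moves from -1.14 to -5.89 in gemcitabine against vehicle, is -3.22 in place of -3.19 in KCL-HO-1i/gemcitabine, and turns from -0.51 to 1.06 in the KCL-HO-1i mean.

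The effect of KCL-HO-1i on the members was not shown to differ between backgrounds. The interaction with 5-FU and that with gemcitabine called 0 of 7 members and 0% of genes each, and 0 members passed an unadjusted p under 0.05, against 8.53% and 1.34% of genes. DESeq2 and limma-voom called 0 members in both. The term with the smallest p was -3.65 for Hbb-bt with gemcitabine (SE 1.79, unadjusted p = 0.0515).

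In 5-FU alone against vehicle, no member and 0% of genes were called, and 0 of 7 members passed the unadjusted threshold against 3.89% of genes, with 0 calls by DESeq2 and limma-voom. Averaged over both backgrounds, a contrast added after seeing the data, Alas2 was the only member past the unadjusted threshold (-1.21, SE 0.53, adjusted p = 0.381), against 12% of genes with 0% called.

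For the haemoglobin chains, the sign of the averaged KCL-HO-1i values depended on 1 library. Against vehicle the log2 fold changes were 0.36 for Hba-a1, 0.41 for Hbb-bs and 0.29 for Hbb-bt, and 0.31 for Alas2. Averaged over backgrounds they were -0.45, -0.51, -1.08 and -0.44 (adjusted p from 0.373 to 0.692). Without gemcitabine replicate 5 the 3 chains turned to 0.91, 1.06 and 0.79.

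Hemopexin itself was hardly measured. Hpx had 0 to 6 reads per library and 56 in all, and group means ran from 0.101 CPM in vehicle to 0.229 CPM in KCL-HO-1i/5-FU. With levels at or near the floor of 3 reads, no difference between groups was detectable at this depth.

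Of the genes that act after haptoglobin and hemopexin, 3 rose with KCL-HO-1i. Hmox1 was called over the 3 backgrounds at 2.42 (SE 0.38, adjusted p = 0.0113) and was above its background mean in 15 of 15 KCL-HO-1i libraries. The iron exporter Slc40a1 (1.501, adjusted p = 0.0149) and Spic, a factor of red pulp and heme-loaded macrophages (3.14, adjusted p = 0.0275), were called as well. These were the 3 calls among 15 genes of haemoglobin and heme clearance, against 0.0586% of all genes. Of the 15, 13 had a positive value, with a median of 0.51 beside 0.00 over all genes. Spic had few reads, 271 in all, with 2 in vehicle, 23 in 5-FU and 8 in gemcitabine. Cd163, which takes up haptoglobin with haemoglobin, was at 0.97 (SE 0.55, adjusted p = 0.293), and had group means of 3.49 CPM in vehicle and 13.4 CPM in KCL-HO-1i.

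Liver transcripts were low. The sum of 10 hepatocyte genes ranged from 1.503 to 4.83 CPM in vehicle and reached 10.2 CPM in KCL-HO-1i replicate 5, the highest of 30. Of these genes 1 was tested, Serpina1b, with at most 68 reads in a library. Fgb reached 102 reads and Ahsg 45, while albumin had at most 7, Ttr at most 1 and Apob 0. Of 17 tested acute phase genes 0 were called, with a median of 0.32 in the KCL-HO-1i average, and the strongest by p was the cytokine signalling inhibitor Socs3 (0.86, adjusted p = 0.0558).

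Markers of other cells had higher values in the KCL-HO-1i average as well. There, 12 of 12 adipocyte genes had positive values (median 2.29) and their sum ranged from 120 to 693 CPM in vehicle, from 138 to 11537 in KCL-HO-1i and, with gemcitabine added, from 86.3 to 15318. The KCL-HO-1i/5-FU libraries did not share this, with sums from 93.6 to 651 CPM, 6 of 12 genes positive and a median of -0.04 against vehicle. Medians were 1.28 for 10 fibroblast genes, 0.84 for 6 tested neutrophil genes, 0.78 for 10 macrophage genes and 3.33 for 8 skeletal muscle genes, and 0 genes of these lists were called. Against 5-FU, 0 of 8 skeletal muscle genes were positive in KCL-HO-1i/5-FU (median -2.29). The part of these cells in the Hp and Lrp1 values was not tested.

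Hp followed the adipocyte list across tumours, with r = 0.826 and rho = 0.787 over 30 libraries (permutation p = 1e-05 for each, the smallest possible, adjusted p = 2e-05 and 2.67e-05 over 8 relations). It was 0.745 without the 2 farthest libraries, 0.779 with group means subtracted and 0.466 within mouse code 76 (7 libraries). With the neutrophil list r was 0.714 (permutation p = 1e-05, adjusted p = 2e-05) and rho 0.638 (permutation p = 1.6e-04, adjusted p = 3.2e-04), with 0.623, 0.747 and 0.633 in the same checks. Lrp1 followed the fibroblast list with r = 0.811 and rho = 0.762 (permutation p = 1e-05, adjusted p = 2e-05 and 2.67e-05), and 0.788, 0.780 and 0.652. No relation of Hpx with the adipocyte list was detected (r = 0.043, rho = -0.0056, permutation p = 0.822 and 0.977).

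Over all 30 libraries, as planned, no relation of Hbb-bs with Hp was detected (r = 0.257, permutation p = 0.17, adjusted p = 0.226). Spearman's rho was 0.220 (permutation p = 0.243, adjusted p = 0.323). A split by gemcitabine, not planned, pooled libraries with and without KCL-HO-1i. Within the 10 gemcitabine libraries Hbb-bs moved with Hp (r = 0.839, permutation p = 0.0019, adjusted p = 0.0076, and rho = 0.891, permutation p = 0.00106, adjusted p = 0.00424), with r = 0.881 over 9 libraries without replicate 5. Over the other 20 libraries r was 0.416 (permutation p = 0.0681) and 0.0845 without the 2 farthest.

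Other LDL receptor family members had small values, with 8 of 9 tested at negative values and a median of -0.13 in the KCL-HO-1i average. Their direction differed between backgrounds. In KCL-HO-1i/5-FU against 5-FU 9 of 9 were positive (median 0.28). In KCL-HO-1i against vehicle (median -0.38) and KCL-HO-1i/gemcitabine against gemcitabine (median -0.26) 0 of 9 were. Among 13 ligands of LRP1 the median was 0.59 and 0 were called. Those with the smallest p were the protease Mmp2 (2.01, adjusted p = 0.0525), the lipase Lpl (2.28, adjusted p = 0.0532), the plasminogen activator Plat (1.19, adjusted p = 0.0558) and the coagulation inhibitor Tfpi (0.93, adjusted p = 0.0580).

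As a description over 30 libraries, the non-member most like Hba-a1, Hbb-bs and Hbb-bt was Mtmr6 (r = 0.598, 0.623 and 0.588), and that most like Alas2 was Pcmtd1 (r = 0.712). Hp was most like Rgl1 (r = 0.914), Fhl1 (r = 0.913) and Twist1 (r = 0.912), and Lrp1 was most like Itga5 (r = 0.931), Emilin1 (r = 0.913) and Rab8b (r = 0.910). Between members, r was 0.989 for Hba-a1 with Hbb-bs and 0.802 for Hp with Lrp1. All these values share the same libraries and their depth.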

How the data were processed

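Expected counts per gene, deposited by the authors as 1 table, were rounded to whole numbers. The methods call them TPM counts, but their totals differ between libraries. Per the submitters' processing notes, the authors used FastQC 0.11.9, STAR 2.7.9a, Salmon 1.9.0, DESeq2 and mm10, and the study's methods add tximport. The directional libraries were made from total RNA. Groups came from the labels. The labels do not say that replicates are separate mice, but the paper describes cohorts of 5 mice and tumours. Some mouse codes recur within and across groups, and p-values measure the spread between libraries. In edgeR 4.0.16 (R 4.3.3) all 30 libraries entered 1 quasi-likelihood fit with TMM scaling, filterByExpr and Benjamini-Hochberg adjustment over 13663 genes at 0.05. DESeq2 1.42.0, limma-voom (limma 3.58.1), other scalings and filters, mouse code, merged paralogs and leaving out each library were alternatives. The fit was tested on simulated data. Relations used 100000 permutations. Named genes were the 8 members, Hmox1, Cd163, up to 4 genes per list by smallest p in the KCL-HO-1i average, and the 3 genes most like each member; others are named as examples chosen after their values were seen. Members and lists were chosen with earlier results of these data known. Intervals are exact (Clopper-Pearson) and cover counting error only. No pair of the 60 within-group pairs was a duplicate (chi-square per degree of freedom at least 20.7).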

Additional observations from a re-analysis of the deposited data

Results flagged for a closer look

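A library was singled out where its gap to the nearest library of its group took up more than 0.71 of the range of the group, Dixon's 95% limit for 5 libraries. Of 42 sets of 5 libraries (7 members in 6 groups) 8 held one. The limit is passed in about 1 in 20 sets by chance only where values are normally distributed. The haemoglobin rows move together and Hba-a2 is often at 0, so no excess over chance can be read from this count. Gemcitabine replicate 5 was the highest of its group for 3 genes, at 262 CPM for Hbb-bs with the next library at 3.26, at 49.0 CPM for Hba-a2 with the next at 0.466 and at 13.01 CPM for Hbb-bt with the next at 0.167. Vehicle replicate 5 was the lowest of its group for Hba-a1, at 47.8 CPM with the next at 161, and for Hbb-bt, at 3.05 CPM with the next at 9.88. KCL-HO-1i/gemcitabine replicate 2 was the highest for Hba-a2, at 4.32 CPM with the others at 0, and for Lrp1, at 263 CPM with the next at 87.7. KCL-HO-1i/5-FU replicate 3 was the highest for Lrp1, at 453 CPM with the next at 74.395.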

How the results depend on the processing

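Of 1301 alternative values of the member fold changes, 1246 kept their direction and side of the threshold, 39 passed it and 16 turned direction. Leaving out 1 library at a time moved the number of members called from 0 to between 0 and 3 in gemcitabine against vehicle and in the gemcitabine average, between 0 and 1 in KCL-HO-1i/gemcitabine against vehicle (Hbb-bt without KCL-HO-1i/5-FU replicate 3) and between 0 and 2 in the KCL-HO-1i average. The 3 calls came without gemcitabine replicate 5. In the KCL-HO-1i average, Hp and Lrp1 were called without gemcitabine replicate 5, KCL-HO-1i replicate 5, KCL-HO-1i/5-FU replicate 4 or 5, or KCL-HO-1i/gemcitabine replicate 4, and Hp without 5-FU replicate 5 or KCL-HO-1i replicate 1. Merging paralogs without the fifth gemcitabine library, chosen after seeing the data, called 2 in each of gemcitabine against vehicle, the gemcitabine average and the KCL-HO-1i average. Against vehicle DESeq2 called 1 member in KCL-HO-1i/5-FU, and 4 members in KCL-HO-1i/gemcitabine. It called 2 in the KCL-HO-1i average, and limma-voom called 5 in KCL-HO-1i/gemcitabine against vehicle.

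Directions turned in the KCL-HO-1i average. Leaving out 1 library gave -0.80 to 0.91 for Hba-a1, -0.96 to 1.06 for Hbb-bs and -1.77 to 0.79 for Hbb-bt. Limma-voom gave 0.047 for Hba-a1 and 0.036 for Hbb-bs. Mouse code as a covariate gave 1.22 for Hba-a1, 1.22 for Hbb-bs, 0.80 for Hbb-bt and 0.32 for Alas2. Merged paralogs without the fifth gemcitabine library gave 0.93 for alpha and 1.05 for beta. With mouse code, Hp turned to -1.44 and Lrp1 to -1.52 in gemcitabine against vehicle, and to -0.044 and -0.27 in the gemcitabine average. It moved gemcitabine against vehicle to -4.81 for Hba-a1, -4.63 for Hbb-bs and -7.34 for Hbb-bt, and KCL-HO-1i against vehicle to 1.19 for Hp and 0.071 for Lrp1, none called. Gemcitabine replicate 5 is alone in code 86, so the model with mouse code fitted that library exactly, which is close to leaving it out. The cause of the turns was not tested.

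Over 30 libraries as planned, Hbb-bs had r = 0.227 with Hmox1, 0.257 with Hp and 0.271 with the endothelial list. None of these was detected (permutation test, adjusted p = 0.259, 0.226 and 0.226). With group means subtracted, an alternative, Hbb-bs was related to Hmox1 (r = 0.529), Hp (0.704) and the endothelial list (0.562), and without the fifth gemcitabine library, chosen after seeing the data, at 0.582, 0.610 and 0.534. Hpx with the adipocyte list turned to -0.067 and -0.087.

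Replicate numbers did not pair the libraries. Deviations from group means correlated at a mean of 0.0028 over 75 pairs with the same number (lowest -0.58), against 0.0020 for other pairs, and 8 of 30 libraries correlated best with their own number. With a replicate block, 0 members were called in the comparisons with vehicle and in the averages, and Hbb-bs in gemcitabine against vehicle was -2.45.

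Depth limits Hpx, Hbb-bt in the gemcitabine groups and Alas2 most. With 5 libraries per group, gemcitabine against vehicle rests on 1 library.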
